A study of Mus musculus with 57 samples.

Results

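The cells described here were the Mki67-positive tumour cells of mouse bone, divided by whether they still held a membrane dye. Mki67 (ENSMUSG00000031004, GRCm38 chr7:135689784-135716361, minus strand, protein-coding) encodes the Ki-67 protein, which coats mitotic chromosomes and is the usual stain for cycling cells. RM1, a mouse prostate cancer line, carried the fluorescent protein eCFP and the luciferase Luc2, was stained with the lipophilic dye PKH26 and was injected into the heart of C57BL/6 mice. Dividing cells share the dye between daughters, so dye-bright cells have divided little or not at all since staining. Single dye-positive cells, called dormant by the submitters, and dye-negative cells, called proliferating, were sorted from bone and sequenced 1 cell per library. Members were chosen by 2 measured values, as the cells with an eCFP value of at least 100 and any Mki67 value above 0: 34 of the 57 cells in the table, and 34 of the 51 cells that met the eCFP threshold. All were labelled RM1 cells from the bone of C57BL/6 hosts with no further treatment, and the hosts keep their own marrow cells. The dye-retaining group held 12 cells of 4 mice: 4 from mouse 369 (day 17 after injection), 5 from mouse 1185 (day 14), 2 from mouse 1184 (day 15) and 1 from mouse 452 (day 16). The dye-diluted group held 22 cells of 5 mice: 11 from mouse 369, 4 from mouse 1185, 3 from mouse 452, 3 from mouse 360 (day 17) and 1 from mouse 268 (day 18). Mice 369, 1185 and 452 gave members of both states. Dye state came from the sort, per the labels, and libraries were made in batches that held a single state each, so dye state and library batch cannot be told apart.

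Cells that commit to division switch genes on in an order. In G1 the D and E cyclins and E2F factors start the programme. In S phase the MCM helicase, the PCNA clamp, the polymerases and ribonucleotide reductase copy the genome. In G2 and M the A and B cyclins with Cdk1, the kinetochore and its checkpoint, the mitotic kinesins, the condensins and topoisomerase II take over. Ki-67 accumulates from S phase to mitosis and is lost gradually after a cell leaves the cycle. The comparison asks whether cells that kept the dye and yet held Mki67 mRNA also held the rest of this programme.

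Values are the deposited normalised reads, which are never negative. Each value was a whole number of reads multiplied by 1 factor per cell, so reads could be recovered, 1184782 to 4548493 per member cell. Mki67 and eCFP values chose the members and are given as description. Among dye-retaining members Mki67 ran from 0.860 through a median of 194.7 to 908.6. Among dye-diluted members it ran from 5.88 through a median of 226.5 to 1399. The lowest member, dye-retaining cell 52 of mouse 452, held 1 recovered Mki67 read, and the lowest dye-diluted members held 2 and 4 reads. Just outside the rule were 2 dye-retaining cells with Mki67 above 0 and eCFP under 100, with eCFP values of 87.6 and 2.28, while the lowest eCFP among members was 417.6. Mki67 was above 0 in 12 of 22 labelled dye-retaining cells (54.5%, exact 95% interval 32.2% to 75.6%) and in 22 of 29 labelled dye-diluted cells (75.9%, 56.5% to 89.7%). These intervals cover counting error only and treat cells as independent. Every member carried Luc2, at 1850 to 23345 in dye-retaining and 2946 to 16461 in dye-diluted cells, and the RM1 keratin gene Krt8, at 652.8 to 10084 and 87.8 to 24783.

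The 101 mitotic genes covered cyclins and mitotic kinases, kinetochore and checkpoint, spindle and cytokinesis, and condensins and mitotic chromatin. The number above 0 lay within the dye-diluted range, 31 to 101, in 10 of 12 dye-retaining members. The floor of that range was 1 cell of mouse 452. Dye-retaining cells with Mki67 at 0 held 21 to 70, so lying inside the range does not set members apart from them. In mouse 369 the 4 dye-retaining cells held 86, 97, 99 and 100 of the 101, against 65 to 100 with a median of 91 in the 11 dye-diluted cells of the same mouse. In mouse 1185 the 5 dye-retaining cells held 23, 75, 76, 87 and 96, and the 4 dye-diluted cells 70, 77, 82 and 90. In mouse 452 the single dye-retaining cell held 44, and the 3 dye-diluted cells 31, 97 and 100. The dye-retaining cells of mouse 1184 held 30 and 98, the dye-diluted cells of mouse 360 held 86, 101 and 101, and the one of mouse 268 held 75. Thus 9 of 12 dye-retaining members and 19 of 22 dye-diluted members held at least 75 mitotic genes, and 3 of 12 and 1 of 22 held under 50. The 3 were dye-retaining cells 98, 104 and 52, with 5210, 5767 and 5825 genes of any kind above 0. The dye-retaining median was 7755.5. Cell 104 also held 12 of 18 pan-leukocyte and 17 of 23 macrophage genes above 0, and the lowest eCFP value among members, 417.6. Such genes were found at high mitotic counts too. Dye-retaining cells 26, 29 and 81, with 97, 99 and 75 mitotic genes, held 16, 15 and 6 of the 18 pan-leukocyte genes. They held 22, 23 and 12 of the 23 macrophage genes. Within mice the ranges overlapped in mice 369, 1185 and 452. After every cell was thinned to 1184782 reads, the dye-retaining cells held 16 to 100 with a median of 86.5, and the dye-diluted cells 31 to 101 with a median of 88.5.

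**Figure D1:**
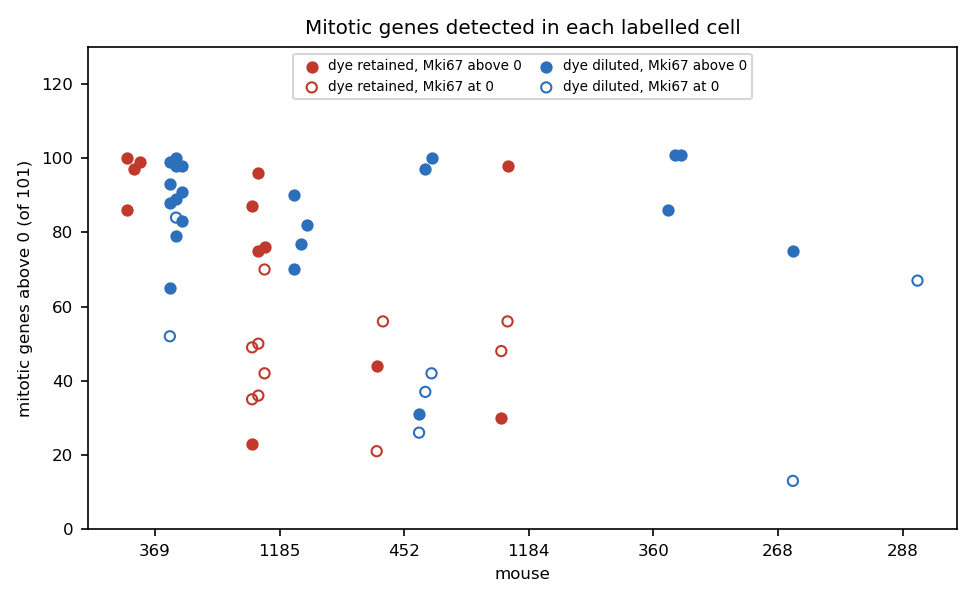
Mitotic genes above 0, of 101, in each labelled cell, with mice along the horizontal axis, dye-retaining cells in red and dye-diluted cells in blue; filled points are Mki67-positive and open points have Mki67 at 0. Filled red points lie at 75 or above in 9 of 12 cells, and the other 3 lie at 23, 30 and 44 among the open points.

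Labelled cells with Mki67 at 0 give the level to read these counts against. The 10 dye-retaining cells of that kind held 21 to 70 mitotic genes with a median of 48.5, and the 7 dye-diluted cells held 13 to 84 with a median of 42. None of the 10 and 1 of the 7 reached 75. Mki67 chose the classes and varies with these genes, so the gap between classes was not tested. As a description with no test over mice, Spearman's rho between the mean log2 level of the mitotic genes and the number of genes above 0 was 0.61 over 12 dye-retaining cells and 0.49 over 22 dye-diluted cells. The 2 measures of a cell share its library and depth, and cells of a mouse share the animal.

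For the test, log2(value + 1) was averaged over the members of a mouse and state, so the mouse was the replicate, with 4 dye-retaining and 5 dye-diluted means. Because cells at 0 count in these means, a difference combines how many cells held a gene with how much they held. No gene of 11139 passed limma with Benjamini-Hochberg adjustment at 0.05 (0%), with 0.897 as the lowest adjusted p. Without adjustment, at p under 0.05, 487 genes had lower values (4.37% of the genes tested) and 46 had higher values (0.413%) in dye-retaining cells. The count of lower genes was 241 without mouse 360, 320 without mouse 452 and 260 with the mouse as a block, and that of higher genes was 30 without mouse 1184. With means of at least 2 cells 218 genes were lower and 110 higher. With means weighted by cells 397 were lower and 88 higher, and with Mki67 of at least 10 the counts were 288 and 83. The median difference over all genes tested, dye retained minus dye diluted, was -0.50, with 7760 genes below 0 and 3379 above. Mouse means did not overlap in 129 genes with lower values (1.16%) and in 5 with higher values (0.0449%). edgeR on recovered reads also called 0 genes, with 123 lower and 95 higher at an unadjusted p under 0.05, while DESeq2 called 20.

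Mitotic genes sat below the median of all genes in these mouse means. Of 100 tested, 91 had a negative and 9 a positive difference, the median difference was -1.57, and 12 had an unadjusted p under 0.05, all with lower values in dye-retaining cells, beside 4.37% of all genes. The mean log2 level over the 101 genes was 5.27 ± 2.23 in dye-retaining (SD, n = 4 mice) and 6.82 ± 1.16 in dye-diluted cells (n = 5), so the gap was smaller than the spread between dye-retaining mice. By mouse it was 7.65, 5.63, 5.51 and 2.27 in dye-retaining cells of mice 369, 1185, 1184 and 452, and 7.23, 6.40, 6.83, 8.40 and 5.23 in dye-diluted cells of mice 369, 1185, 452, 360 and 268. Mouse 369, with the most cells, had the higher value in its dye-retaining cells, and mice 1185 and 452 in their dye-diluted cells. The median difference of the mitotic genes was -0.58 without mouse 452, beside -0.40 over all genes there. It was -0.54 with members restricted to an Mki67 value of at least 10, beside -0.28 over all genes. Both alternatives left out cell 52, the only dye-retaining member of mouse 452 and the only dye-retaining member with Mki67 under 10. They are therefore not separate checks of that cell. With eCFP of at least 1000 the mitotic median was -0.54, beside -0.25 over all genes. It was -0.16 without the dye-retaining cells of mice 452 and 1184, an alternative chosen after seeing the data, beside -0.28 over all genes there. A typical mitotic gene was above 0 in 9 of 12 dye-retaining cells (75%) and 20 of 22 dye-diluted cells (90.9%), and the median gene of all those tested in 8 (66.7%) and 17 (77.3%).

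Kinetochore genes had the lowest median of the 4 mitotic lists, -2.11 over 30 genes, with 27 below 0. Cenpe, the kinesin that carries chromosomes along microtubules to the spindle equator, was at 0 in 4 of 12 dye-retaining cells: cells 104, 52, 81 and 98. In the other dye-retaining cells Cenpe values were 40.8, 163.2, 394.7, 439.4, 574.0, 1176, 1254 and 1349. In dye-diluted cells Cenpe ran from 0 in 1 cell through a median of 676.2 to 3938. Mouse means of Cenpe on the log2(value + 1) scale were 4.71 ± 3.51 (n = 4) and 9.42 ± 1.13 (n = 5), a difference of -4.70 with a standard error of 1.29 and an adjusted p of 0.897. In mouse 369 the Cenpe means of the 2 states were nearly equal, 8.48 and 8.53, and in mouse 452 they were 0 and 10.98. Cdc20, the activator of the anaphase-promoting complex, differed by -3.15 (SE 1.31). Birc5, the survivin subunit of the chromosomal passenger complex, differed by -3.23 (SE 1.37). Over the 22 alternatives the differences of Cdc20 and Birc5 ranged from -4.37 to -0.32 and from -4.35 to -0.44. Cell 52 held both genes at 0.86. Cenpk, a subunit of the inner kinetochore, differed by -2.94 (SE 1.28), and it was the 1 mitotic gene whose mouse means did not overlap, 0.90 to 5.42 against 5.63 to 7.62. That is 1 of 100, a share near the 1.16% of all genes.

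Among cyclins and mitotic kinases, 17 of 20 had a negative difference, with a median of -1.24. Ccnb2, a B-type cyclin that activates Cdk1, was at 0 in dye-retaining cells 104, 29, 52 and 98 and ran from 83.0 to 1719 in the other 8. In dye-diluted cells it was at 0 in 1 and ran from 158.5 to 2921 in the other 21. Its mouse means were 4.55 ± 3.22 and 8.88 ± 1.10, a difference of -4.33 (SE 1.28). The state ranges of Ccnb2 values overlapped over most of their length. Ccna2, the cyclin of S phase and early mitosis, had a dye-retaining range of 0 to 1819 with a median of 516.6 and a dye-diluted range of 0 to 2774 with a median of 1221, a difference of -3.53 (SE 1.51). Over the 22 alternatives the differences of Ccnb2 and Ccna2 ranged from -5.89 to -1.22 and from -4.84 to -0.59. Aurka, a spindle-pole kinase, had medians of 259.5 and 506.5, and Plk1, a kinase needed from mitotic entry to cytokinesis, had medians of 52.0 and 264.4. Their differences were -1.73 (SE 0.85) and -2.28 (SE 1.85). Cks2, a small Cdk-binding subunit, differed by -1.62 (SE 0.80).

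Among other central mitotic genes, the medians of Cdk1 and Top2a were higher and that of Ccnb1 was lower in dye-retaining cells, with ranges that overlapped. Cdk1, the kinase that drives entry into mitosis, had a median of 1020 in dye-retaining and 976.2 in dye-diluted cells. It was at 0 in dye-retaining cells 97 and 98 and at 2.11 in cell 104, and the other 9 ran from 519.9 to 2478, against 214.2 to 2598 in all dye-diluted cells. Top2a, which untangles sister chromatids, had medians of 1214 and 996.9. Top2a was at 0 in dye-retaining cells 52 and 98, and its highest values were 3319 and 4665. Ccnb1, the principal mitotic cyclin, had medians of 1493 and 1864. It ran from 139.5 to 5005 in 10 of the dye-retaining cells, was at 0.860 and 0.910 in cells 52 and 98, and ran from 126.9 to 9015 in dye-diluted cells. The mouse-mean differences were -1.37 (SE 0.85) for Cdk1, -2.50 (SE 1.78) for Top2a and -2.52 (SE 1.96) for Ccnb1. The first changed sign in 3 alternatives and the second without mouse 452.

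**Figure D2:**
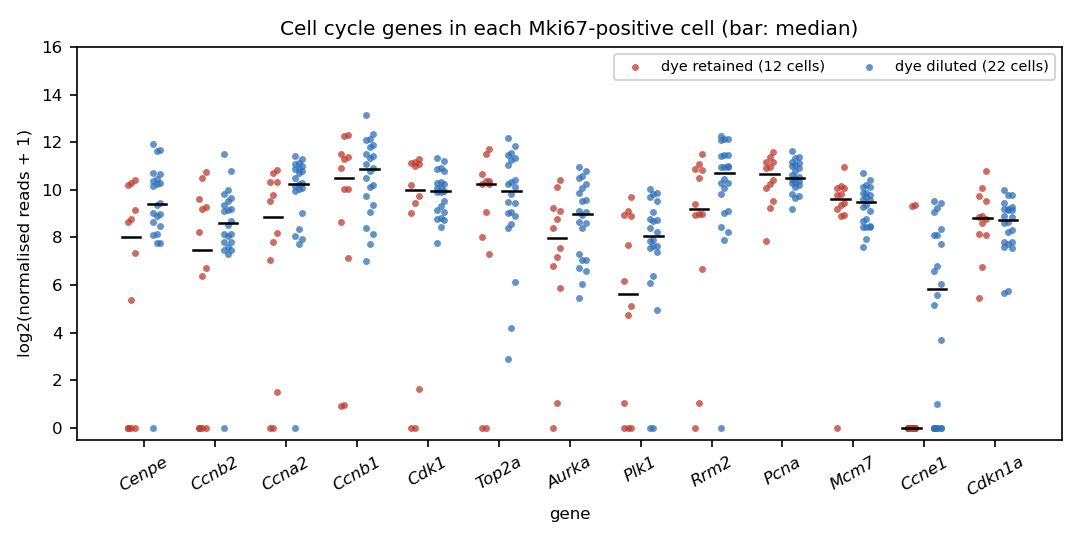
Level of 13 cell cycle genes in each Mki67-positive cell, as log2(normalised reads + 1), with dye-retaining cells (12) in red, dye-diluted cells (22) in blue and the median of cells as a black bar. Dye-retaining cells split into points within the dye-diluted range and a few points at or near 0, and Pcna, Mcm7 and Cdkn1a overlap over nearly the whole range.

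Spindle genes had 31 of 33 differences below 0 and a median of -1.52. Nde1, a dynein regulator at the centrosome and kinetochore, differed by -2.57 (SE 0.95) and was above 0 in 9 of 12 and 22 of 22 cells. Kif20a, a kinesin of the cleavage furrow, differed by -3.32 (SE 1.39). Ckap2l, a spindle protein, differed by -3.30 (SE 1.37). Stmn1, which destabilises microtubules, differed by -1.63 (SE 0.73). Tubb5, a beta-tubulin with close paralogs, so that its reads may be divided among them, had medians of 2333 and 2427 and a difference of -0.74 (SE 0.48). Mitotic chromatin genes had 16 of 17 below 0 and a median of -1.46. Hmgb2, a chromatin protein abundant in cycling cells, differed by -1.30 (SE 0.70). The condensin core subunits Smc4 and Smc2 differed by -2.58 (SE 1.43) and -2.53 (SE 1.49). Cdca3, a mitotic-entry factor, differed by -2.85 (SE 1.43). All of these genes had an adjusted p of 0.897 by limma. Cell 52, the only dye-retaining member of mouse 452, held Kif20a, Ckap2l, Smc4, Smc2 and Cdca3 at 0. Over the 22 alternatives the differences of Kif20a and Ckap2l ranged from -4.51 to -0.56 and from -4.53 to -0.85. Those of Smc4, Smc2 and Cdca3 ranged from -3.73 to -0.48, from -3.72 to 0.34 and from -3.73 to -0.65.

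The 250 bases before the start of the 3 mitotic genes with the smallest p are shown because mitotic promoters are known for a pair of elements. These are the CCAAT box bound by NF-Y and the CHR, TTTGAA, through which the DREAM complex represses them in resting cells. Capitals mark CCAAT and TTTGAA on either strand (ATTGG and TTCAAA as read here). The sequences are RefSeq's, 5′ to 3′ along the gene.
Cenpe, GRCm38.p6 chr3:135212313-135212562, plus strand: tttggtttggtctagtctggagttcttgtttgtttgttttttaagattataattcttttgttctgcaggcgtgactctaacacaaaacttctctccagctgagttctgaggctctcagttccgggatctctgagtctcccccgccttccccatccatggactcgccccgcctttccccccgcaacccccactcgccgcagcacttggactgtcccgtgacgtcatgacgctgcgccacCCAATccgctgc
Ccnb2, GRCm38.p6 chr9:70421555-70421804, minus strand: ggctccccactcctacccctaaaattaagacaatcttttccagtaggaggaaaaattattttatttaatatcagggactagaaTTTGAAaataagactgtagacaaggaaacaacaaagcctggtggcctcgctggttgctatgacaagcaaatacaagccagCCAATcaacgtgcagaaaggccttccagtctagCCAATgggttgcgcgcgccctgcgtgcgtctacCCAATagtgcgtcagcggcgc
Nde1, GRCm38.p6 chr16:14163025-14163274, plus strand: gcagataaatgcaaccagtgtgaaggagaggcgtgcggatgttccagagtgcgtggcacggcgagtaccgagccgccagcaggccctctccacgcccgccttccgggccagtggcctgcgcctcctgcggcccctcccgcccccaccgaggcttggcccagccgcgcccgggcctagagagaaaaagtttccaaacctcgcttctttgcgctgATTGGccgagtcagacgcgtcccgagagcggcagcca
Ccnb2 held 1 TTTGAA and 3 CCAAT matches, whereas Cenpe and Nde1 each held 1 CCAAT match. In windows of the same length, TTTGAA was found in 33 of 92 promoters of 82 matched mitotic genes (35.9%), in 8 of 62 promoters of 53 matched replication genes (12.9%) and in 5252 of 32851 promoters in all (16.0%). CCAAT was found in 68.5%, 54.8% and 33.8% of these. Matches are letters in a window, not measured binding.

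Replication genes had a median difference close to that of all genes. Of 65 tested, 44 had a negative and 21 a positive difference, the median was -0.52 beside -0.50 over all genes, and 3 had an unadjusted p under 0.05, all with lower values in dye-retaining cells, a share near the 4.37% of all genes. Dye-retaining members held 23 to 65 of the 65 genes above 0 with a median of 60, and dye-diluted members 22 to 65 with a median of 59.5. All 12 dye-retaining cells were inside the dye-diluted range by number, and 11 of 12 by mean log2 level. Dye-retaining cells with Mki67 at 0 held 8 to 63 with a median of 42. The range takes in such cells too, so lying inside it does not set members apart from them. The median changed sign in some alternatives and was 0.20 with the mouse as a block. Pcna, the sliding clamp of DNA polymerase, was above 0 in every member, at 228.6 to 3066 with a median of 1645 in dye-retaining and 589.7 to 3166 with a median of 1451 in dye-diluted cells. Its mouse means were 10.27 ± 0.49 and 10.34 ± 0.41, a difference of -0.07 (SE 0.39). Mcm7, a helicase subunit, had medians of 791.7 and 711.7 and a difference of -0.60 (SE 0.91). Orc6, of the origin recognition complex, differed by -0.73 (SE 0.61), and Dbf4, which activates the Cdc7 kinase at origins, by -3.33 (SE 1.42). At the fork, the clamp-loader subunit Rfc4 differed by -2.09 (SE 0.83) and the polymerase delta subunit Pold3 by -1.94 (SE 1.29).

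Within the replication genes, nucleotide supply had a median difference of -1.33, with 12 of 14 genes below 0, beside -0.44 for origin and helicase genes and -0.41 for fork genes. Umps, which makes UMP, differed by -2.24 (SE 0.87). Rrm2, the regulatory subunit of ribonucleotide reductase, had medians of 594.0 and 1692 and a difference of -1.97 (SE 1.10). Its partner Rrm1 differed by -1.57 (SE 0.98), and the purine enzyme Paics by -1.36 (SE 0.72). Spearman's rho between mitotic and replication mean log2 levels was 0.58 over 12 dye-retaining cells and 0.38 over 22 dye-diluted cells. This is a description with no test over mice. The 2 levels did not go together in every cell. Dye-retaining cell 97 of mouse 1185 held 76 of 101 mitotic genes, with Ccnb1 at 5005 and Cenpe at 1254, but 28 of 65 replication genes and Pcna at 228.6, the lowest of all members. Dye-retaining cell 81 of the same mouse held 64 of 65 replication genes and Pcna at 3066, with Cenpe and Plk1 at 0. Dye-retaining cell 52, the cell with 1 Mki67 read, held 51 replication genes, Pcna at 1075 and Cdk1 at 856.9, beside 44 mitotic genes with Cenpe, Ccnb2, Ccna2, Plk1 and Top2a at 0. Cells 97, 81 and 52 held 4826, 7572 and 5825 genes of any kind above 0, against a dye-retaining median of 7755.5. The part of detection in these patterns was not tested.

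**Figure D3:**
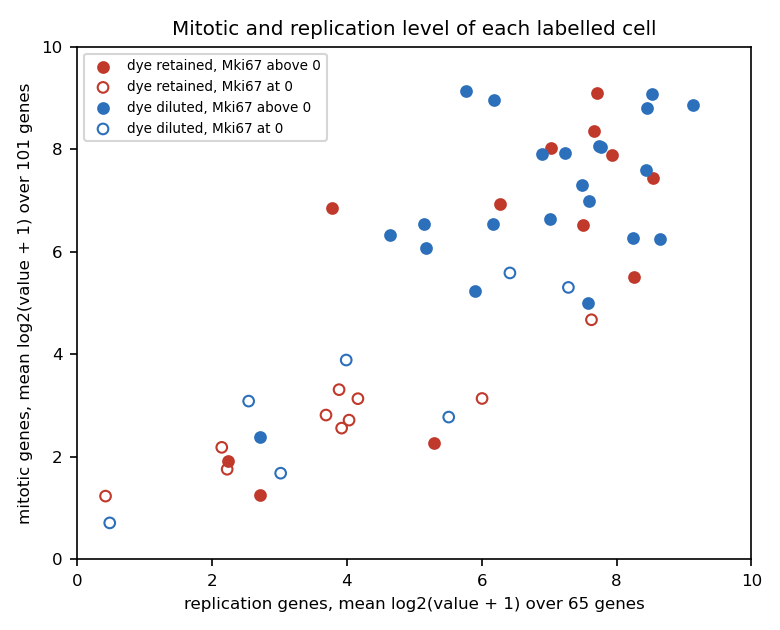
Mean log2(value + 1) over 101 mitotic genes (vertical) against 65 replication genes (horizontal) for each labelled cell, with dye-retaining cells in red, dye-diluted cells in blue, Mki67-positive cells filled and cells with Mki67 at 0 open. Of the dye-retaining Mki67-positive cells, 9 lie among the filled blue points at mitotic levels of 5.50 to 9.10, and 3 lie at 1.24 to 2.27 beside the open points and 1 filled blue point at 2.39.

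The genes that govern entry into S phase had 12 of 16 differences below 0 and a median of -0.79. Over all genes 7760 of 11139 differences were below 0 and the median was -0.50. Ccne1, the E-type cyclin of the G1 to S transition, was above 0 in 2 of 12 dye-retaining cells, at 633.8 and 652.9, and in 15 of 22 dye-diluted cells, at up to 742.6. The 2 were cells 26 and 29 of mouse 369, which also held 16 and 15 of 18 pan-leukocyte genes. The difference of Ccne1 was -3.46 (SE 1.65). Skp2, which targets the CDK inhibitor p27 for degradation, had mouse means of 0 to 3.70 in dye-retaining and 3.92 to 9.39 in dye-diluted cells, which did not overlap, and a difference of -3.97 (SE 1.45). Cdc25a, a phosphatase that activates cyclin-dependent kinases, differed by -2.78 (SE 1.42), and Fbxo5, which restrains the anaphase-promoting complex, by -2.73 (SE 1.62). Ccnd1, the D-type cyclin of early G1, was above 0 in all 34 cells, with medians of 311.3 and 471.0 and a difference of -0.79 (SE 0.63).

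No gene of 11139 was called (0%), and so no inhibitor of the cycle. Of 23 genes for CDK inhibitors, pocket proteins and growth arrest, 18 had a negative and 5 a positive difference, with a median of -0.29 and no unadjusted p under 0.05. Over all 11139 genes, 7760 were negative and 3379 positive, and the median was -0.50. At that p 4.37% of all genes were lower and 0.413% higher. Cdkn1a, the p21 inhibitor, had medians of 450.5 and 428.3, and mouse means of 8.30 ± 1.27 and 8.31 ± 0.87, a difference of -0.01 (SE 0.74) whose sign varied with the setting. Cdkn1b, the p27 inhibitor, was above 0 in 5 of 12 and 8 of 22 cells. Hes1, a transcriptional repressor and Notch target, differed by -2.94 (SE 1.44) and was above 0 in 5 of 12 and 20 of 22 cells. The E2F-family gene E2f5 and the DREAM subunit gene Lin54 differed by -2.00 (SE 1.32) and -1.87 (SE 1.60). Of 19 p53 genes, 6 had positive and 13 negative differences, a split near that of all genes. Trp53inp1, a stress-induced p53 target, differed by 2.15 (SE 1.00). Dormancy genes had 7 positive and 16 negative of 23, with a median of -0.59, likewise a split near that of all genes. Among them the receptors Bmpr2 and Tgfbr2 differed by -2.19 (SE 1.45) and -2.09 (SE 1.39).

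The genes with the smallest p among those going the same way in the 3 shared mice came from several systems. Xrn2, the nuclear exonuclease that ends transcription, had dye-retaining mouse means of 9.68, 8.11, 6.92 and 5.40 in mice 369, 1185, 452 and 1184. Its dye-diluted means were 10.43, 9.57, 11.29, 10.57 and 10.14 in mice 369, 1185, 452, 360 and 268. The difference was -2.87 (SE 0.71, unadjusted p 0.000784, adjusted p 0.897 by limma), and the states overlapped at mouse 369 against mouse 1185. Ltbp1, which stores latent TGF-beta in the matrix, was above 0 in 5 of 12 and 19 of 22 cells. Its mouse means were 0 to 4.61 and 5.60 to 10.44, which did not overlap, a difference of -5.47 (SE 1.38). Polr2b, the second-largest subunit of RNA polymerase II, had medians of 292.3 and 758.6, means that did not overlap and a difference of -3.62 (SE 1.01). Cct4, a subunit of the cytosolic chaperonin that folds tubulin and actin, was above 0 in all 34 cells, at 255.9 to 4565 with a median of 2131 and at 1785 to 6458 with a median of 3328. Its mouse means did not overlap, 10.35 to 11.32 against 11.35 to 12.28, a difference of -1.13 (SE 0.32). Fastkd1, a mitochondrial RNA-binding protein, was above 0 in 1 of 12 and 15 of 22 cells, with a difference of -4.66 (SE 1.31). Fubp1, a single-stranded DNA-binding activator of Myc, differed by -3.14 (SE 0.87), the calcineurin regulatory subunit gene Ppp3r1 by -2.85 (SE 0.81) and the ubiquitin-conjugating enzyme gene Ube2n by -1.71 (SE 0.50).

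Genes with higher values in dye-retaining cells at an unadjusted p under 0.05 were fewer. Nsdhl, an enzyme that removes the C4 methyl groups of sterols, was above 0 in 10 of 12 dye-retaining cells, at up to 1817 with a median of 355.2 over all 12, and in 14 of 22 dye-diluted cells, at up to 254.7 with a median of 80.2. Its difference was 3.50 (SE 1.27), and the mouse means overlapped only in that mouse 369, at 4.98 with the dye, lay below 5.24 in mouse 452 without it. Insig1, which holds the sterol sensor in the endoplasmic reticulum, was above 0 in 11 of 12 and 14 of 22 cells, with medians of 104.6 and 92.8 and a difference of 4.10 (SE 1.62). Insig1 was at 0 in all dye-diluted cells of mice 360 and 268. Pak1, a kinase that acts on the actin cytoskeleton, differed by 3.63 (SE 1.47), and Btbd11, an ankyrin-repeat and BTB-domain protein gene, by 3.76 (SE 1.55). Rnf25 (3.01, SE 1.14), a ubiquitin ligase gene, and Nudt17 (3.06, SE 1.15) had means that did not overlap. Both were highest in the single dye-retaining cell of mouse 452, at 7.58 and 7.71, with 1.19 to 2.53 and 0.97 to 2.38 in the other dye-retaining mice. Tmem151a differed by 3.16 (SE 1.07) and Fam78b by 2.93 (SE 1.19).

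**Figure D4:**
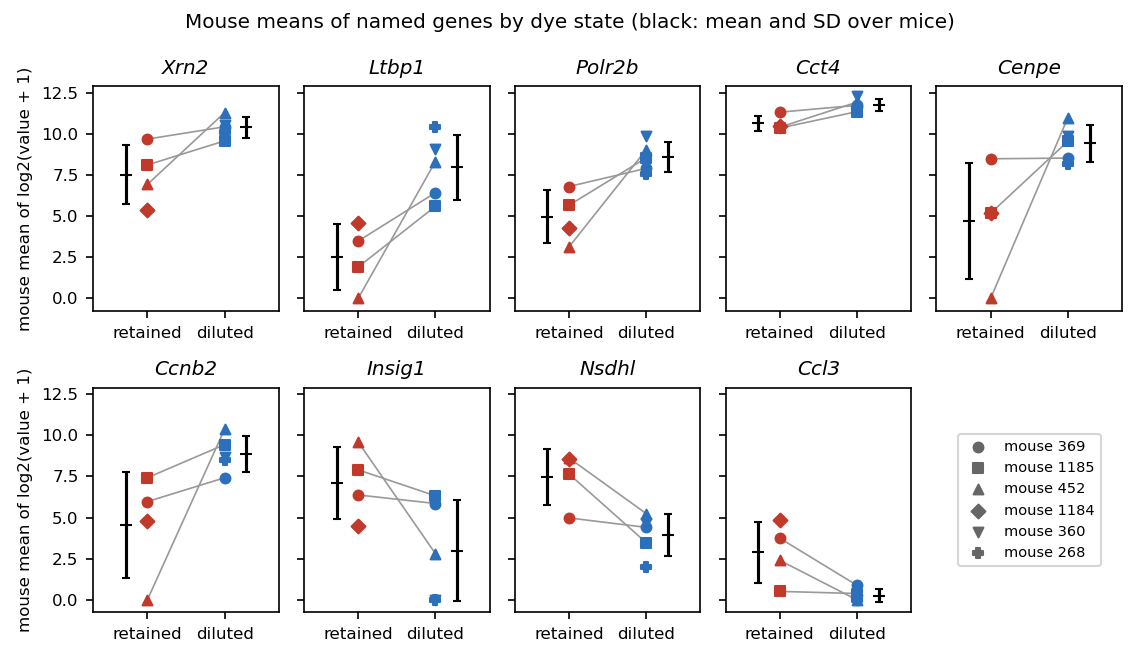
Mean log2(value + 1) of the Mki67-positive cells of each mouse for 9 genes, with dye-retaining cells in red, dye-diluted cells in blue, a symbol per mouse, grey lines joining the states of mice 369, 1185 and 452, and black bars for the mean and SD over 4 and 5 mice. Lines fall or rise the same way in the 3 shared mice, as the choice of genes required, and the 2 states of mouse 369 lie closest for Cenpe, at 8.48 and 8.53.

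Blood cell markers stood beside some of these differences. Pan-leukocyte genes were above 0 in 1 to 16 of 18 with a median of 4 in dye-retaining members and in 1 to 14 with a median of 4 in dye-diluted members. The summed value of the 18 genes was 934.6 to 6526 and 762.0 to 5019. At least 5 of the 18 were above 0 in 4 of 12 dye-retaining and 6 of 22 dye-diluted members. Macrophage genes were above 0 in 2 to 23 of 23 and in 1 to 14, with summed values of 114.8 to 77979 and 3.73 to 4731. The median number above 0 was 5.5 with the dye and 7 without it. Of 16 macrophage genes tested, 14 had a positive difference and the median was 1.73, which was 0.85 without mouse 1184. The medians over the 5 neutrophil and 3 erythroid or megakaryocyte genes tested were -0.30 and -1.01. Ccl3, a macrophage chemokine, was above 0 in 5 of 12 dye-retaining cells, at 866.9, 198.6, 164.0, 5.07 and 4.30 in cells 104, 29, 26, 81 and 52. In dye-diluted cells Ccl3 was above 0 in 4 of 22, at up to 20.4, and the difference was 2.63 (SE 0.90). The common leukocyte antigen gene Ptprc was at 0 in 9 of 12 and 19 of 22 cells and reached 285.5 in dye-retaining cell 26. Ccl4 (2.34, SE 1.03), the complement gene C1qc (1.93, SE 0.88) and the integrin-binding gene Fermt3 (1.81, SE 0.76) had positive differences too. Without the leukocyte-rich cells the macrophage median was -0.33 and the pan-leukocyte median -0.50, in place of 1.73 and 0.67. Those cells were picked by the pan-leukocyte genes themselves, so the shift of that median is no separate observation. Macrophages are leukocytes, so the macrophage median is not independent of that choice either. The mitotic median without those cells was -1.21, beside -0.23 over all genes. The part of these markers in the other differences was not tested.

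Growth and identity genes were split. Of 34 MYC target and ribosome biogenesis genes, 30 had a negative difference, 6 of them with an unadjusted p under 0.05, and the median was -0.73. Over all 11139 genes, 7760 were negative, 4.37% were lower at that p and the median was -0.50. The median of the 34 genes was -0.43 without mouse 360, -0.43 without mouse 1184 and -0.34 with the mouse as a block. The mitochondrial chaperone gene Hspd1 differed by -1.07 (SE 0.41), the chaperonin gene Cct2 by -1.52 (SE 0.59), the nucleolar gene Nop16 by -2.15 (SE 0.85) and the mitochondrial C1qbp by -0.93 (SE 0.41). All 75 cytosolic ribosomal protein genes were above 0 in every member, with 45 positive and 30 negative differences and a median of 0.04. Type I interferon response genes had 19 positive and 17 negative differences of 36 and a median of 0.04. Irf7, the factor that amplifies that response, was above 0 in 4 of 12 and 6 of 22 cells. In the identity list, Vim, an intermediate filament of mesenchymal cells, had medians of 3685 and 5929 and a difference of -0.87 (SE 0.31). Cd44, a hyaluronan receptor, differed by -1.09 (SE 0.49). Krt8 and Krt18, the keratins of simple epithelium, had medians of 3801 and 2764 and of 1478 and 730.1. Their mouse-mean differences were -0.21 (SE 0.62) and 0.59 (SE 0.70), so for Krt8 the 2 measures had opposite signs. Of 16 identity genes, 10 had a negative and 6 a positive difference, with a median of -0.45 beside -0.50 over all genes. Malat1, a nuclear non-coding RNA, ran from 545.8 to 25154 in dye-retaining cells and from 1.95 to 50422 in dye-diluted cells, with 2 of 12 and 8 of 22 under 1000.

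Whether the dye difference is particular to Mki67-positive cells was tested as an interaction, by limma over mouse means of all labelled cells in the 4 classes of dye and Mki67. The contrast was the dye difference in Mki67-positive cells minus that in cells with Mki67 at 0, with 10 dye-retaining and 7 dye-diluted cells in the latter. Those 10 came from mice 452, 1184 and 1185 and those 7 from mice 268, 288, 369 and 452, so mouse 452 alone held both states. Mice recurred across the 4 classes and entered with no block. No gene of 11593 passed (0%), with 0.129 as the lowest adjusted p. Without adjustment, at p under 0.05, 1225 contrasts were negative (10.6%) and 8 positive (0.069%), and the median over all genes was -1.58. Without mouse 268, which had 1 cell in each Mki67 class, that median was -0.93 and the negative count 746, and the negative count was 704 without mouse 1184 and 808 without mouse 1185. The median over the mitotic genes was -0.98, less negative than that over all genes, and it was 0.51 with Mki67 of at least 10 and ranged from -2.02 without mouse 369 to 0.14 without mouse 452. Over replication genes it was -0.08. For Cenpe the contrast was 0.18 (SE 2.41, adjusted p 0.982 by limma) and for Ltbp1 -10.4 (SE 2.25, adjusted p 0.415). Both genes were named for a small p of the difference in Mki67-positive cells, which is a part of this contrast. In cells with Mki67 at 0 the difference was -4.88 for Cenpe and 4.91 for Ltbp1.

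Depth and gene detection were compared over mice. Members held 4826 to 9878 genes above 0 with the dye and 4411 to 10507 without it. Mouse means of genes above 0 were 7248 ± 1050 (n = 4) and 7981 ± 1046 (n = 5), a difference of -733.5 with a two-sided exact permutation p of 0.167. Mouse means of recovered reads were 2534886 ± 746271 and 2054796 ± 377683, a difference of 480089 with an exact permutation p of 0.208, and both p-values adjusted over the 2 measures were 0.208. States were swapped within the 3 shared mice and permuted among the other 3, 24 arrangements in all, so the smallest p the test could give was 0.0417. With every cell thinned to 1184782 reads the difference in genes above 0 was -838.2 (exact permutation p 0.167).

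**Figure D5:**
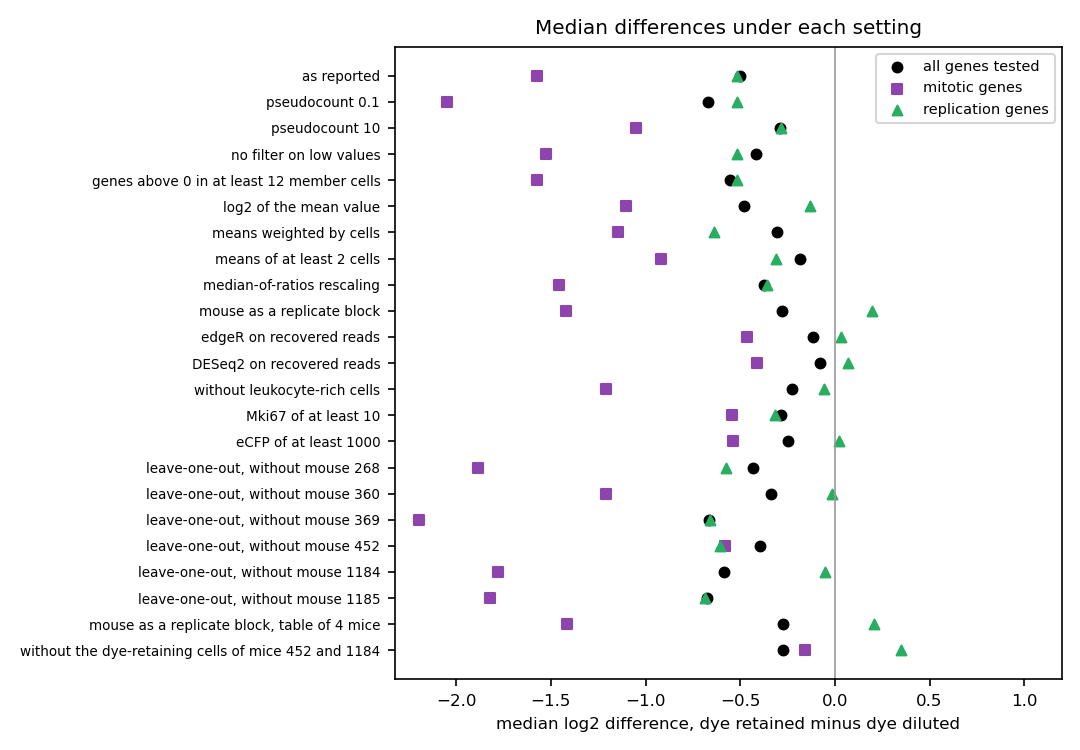
Median difference, dye retained minus dye diluted, over all genes tested (black), mitotic genes (purple) and replication genes (green) as reported and under each of the 22 alternatives. The mitotic median is below 0 in each, from -2.20 to -0.16, and the replication median lies on both sides of 0. The mitotic median is nearer 0 when mouse 452 or cells with few Mki67 reads are left out, and both of these leave out dye-retaining cell 52.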

How the data were processed

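Per the labels' protocols, cDNA of single RM1 cells was made with the SMARTer kit after ERCC spike-in and sequenced as Nextera XT libraries. STAR, RSEM, GRCm38 and mm10 are named, without versions, in the submitters' processing notes. The authors normalised the values with BASiCS, per the series text, and deposited them as a signal, normalised reads per gene and cell. Nonzero gene values of a cell were multiples of 1 step (100.0% within 0.01), so reads were recovered. The 118 spike-in rows had another step and were left out, and 12852 of 12885 gene IDs had a symbol.

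Each deposited sample is 1 cell, and groups came from the titles and the mouse labels. The unit was the mean of log2(value + 1) over the members of a mouse and state. Genes above 0 in at least 6 members, without eCFP and Mki67, entered limma (3.58.1) with trend and robust moderation and no block, with Benjamini-Hochberg adjustment at 0.05. A difference on this scale understates changes of low genes. edgeR (4.0.16) and DESeq2 (1.42.0) on recovered reads were alternatives only, because the deposited values are normalised. Pairing comes from the labels, which give the same mouse. Correlations of paired deviations were 0.377, 0.0561 and -0.00338 in mice 369, 452 and 1185. No 2 member cells correlated above 0.891, so none looked like a repeated deposit. The scripts were run on simulated data, with large changes added to member cells dealt at random to mice and states. That does not show how smaller changes would fare across these mice.

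Named genes were the 10 higher and 10 lower with the smallest unadjusted p among those going the same way in the 3 shared mice. A fixed set of cycle, label and identity genes, not all reported, was added, as were up to 4 members per described list, taken by p. Members, lists and rules were chosen with earlier results of these data known. The 26 lists get counts and medians and no test. A cell was called leukocyte-rich when 5 or more of 18 pan-leukocyte genes were above 0, and it was kept unless stated. Mouse means of 1 cell (dye-retaining in mouse 452, dye-diluted in mouse 268) rest on that cell. Cells of a mouse share an animal, and whether mice were run in separate experiments is not given cell by cell. Promoters are from RefSeq (GRCm38.p6), and gene positions are from GENCODE for GRCm38.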

Additional observations from a re-analysis of the deposited data

Results flagged for a closer look

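In 38 groups of mouse means (14 genes and 5 measures over cells, in 4 dye-retaining or 5 dye-diluted mice), 3 held a mouse far from the rest by Dixon's criterion, and chance gives about 1 in 20. The dye-retaining mean of Cct4 in mouse 369, 11.32, stood above the other 3 mice, which lay between 10.35 and 10.47. The dye-diluted mean of Ccnb1 in mouse 268, 7.701, stood below the other 4, which lay between 10.45 and 11.51. Recovered reads in mouse 268, 1413746, stood below the other 4 dye-diluted mice, the lowest of which averaged 2134941. The mouse 268 values come from 1 cell.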

How the results depend on the processing

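Under 22 alternatives the count of genes called stayed at 0 with one exception: DESeq2 on recovered reads called 20, 6 with higher and 14 with lower values in dye-retaining cells. Of these 20, 5 were on the lists of blood cell markers: Ccl3, Ccl4, Ctss and C1qb with higher values and Hba-a1 with lower values. Among the 11139 genes tested were 12 pan-leukocyte, 16 macrophage, 5 neutrophil, 3 MHC class II and 3 erythroid or megakaryocyte genes. Of the lower genes, 8, such as Phc3 and Zbtb37, were at 0 in all 12 dye-retaining cells. The mitotic median ranged from -2.20 to -0.58 over the fits that left out 1 mouse, the latter without mouse 452. It was -2.05 and -1.05 with pseudocounts of 0.1 and 10, -1.11 for the log2 of the mean, -0.92 with means of at least 2 cells, and -0.46 and -0.41 with edgeR and DESeq2. The replication median ranged from -0.69 to -0.02 when 1 mouse was left out. With the mouse as a replicate block 0 genes were called and the medians were -1.42 and 0.20, and in a second deposited table, normalised separately over 4 mice, 0 genes were called with the block and the medians were -1.42 and 0.20. The block changed no other call. The interaction called 0 genes in every alternative run. Differences in genes above 0 ranged from -1051 to -382.9, and in recovered reads from 319827 to 857403, when 1 mouse was left out. Of 92 named genes 77 kept their direction in each alternative that gave them a value, 13 to 22 alternatives per gene. The other 15 changed sign in at least 1, and the cause was not tested. Cdkn1a had 0.18 weighted by cells, 0.73 with means of at least 2 cells, 0.20 rescaled by median of ratios, 0.084 and 0.090 with the block, 0.47 with edgeR and with DESeq2, 0.41 without leukocyte-rich cells, 0.51 with Mki67 of at least 10, 0.19 with eCFP of at least 1000, -0.36 to 0.21 over the fits without 1 mouse (positive without mouse 268, 452 or 1185), and 0.68 without the dye-retaining cells of mice 452 and 1184, the alternative added later. Mcm7 had 0.29 for the log2 of the mean, 0.57 with both blocks, 0.35 with edgeR, 0.38 with DESeq2, 0.19 without leukocyte-rich cells, 0.40 with eCFP of at least 1000, -1.05 to 0.64 without 1 mouse (positive without mouse 1184) and 0.75 under the added alternative. Pcna had 0.029 for the log2 of the mean, 0.14 rescaled, 0.060 and 0.066 with the block, 0.19 with edgeR, 0.22 with DESeq2, -0.15 to 0.063 without 1 mouse (positive without mouse 1184) and 0.23 under the added alternative. Krt8 had 0.39 weighted by cells, 0.0020 rescaled, 1.01 with both blocks, 0.42 without leukocyte-rich cells, and -0.77 to 0.21 without 1 mouse (positive without mouse 268, 360 or 1184). Luc2 had 0.093 for the log2 of the mean, 0.067 rescaled, 0.053 and 0.059 with the block, 0.33 with edgeR, 0.36 with DESeq2, 0.48 without leukocyte-rich cells and 0.39 with eCFP of at least 1000. Cdkn1b had 0.22 weighted by cells, 0.054 with means of at least 2 cells, and 0.020 and 0.023 with the block. Cdk1 had 0.26 for the log2 of the mean and with DESeq2, and 0.20 with edgeR, where Malat1 had -0.30, -0.25 and -0.25. Lyz2 had -0.56 without leukocyte-rich cells and -0.42 with eCFP of at least 1000. Top2a had -3.78 to 0.046 without 1 mouse (positive without mouse 452), and Axl 0.22 with means of at least 2 cells. Under the added alternative Tubb5 had 0.023, Krt18 -0.089, Smc2 0.34 and Mcm4 0.40. With 4 and 5 mice per state, the number of mice limits what can be called, and a gene at 0 in a cell may be present below the depth reached.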

Other observations

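Nsdhl and Insig1 both belong to sterol synthesis and its feedback, so 23 genes of that pathway were examined after their values were seen, as a description. Differences were positive in 10 and negative in 13, with a median of -0.27. Beside Nsdhl and Insig1, positive differences were found for the desaturase gene Sc5d at 1.91 (SE 1.00), the regulator Srebf2 at 1.56 (SE 1.14) and the mevalonate enzyme gene Mvd at 2.28 (SE 1.32). A negative difference was found for the squalene epoxidase gene Sqle, among others, at -1.82 (SE 1.12). None passed limma with Benjamini-Hochberg adjustment.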
